A study of Mus musculus with 18 samples.

Results

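The genes described here are the writers, the cofactors and the erasers of DNA methylation: the methyltransferase genes Dnmt1, Dnmt3a and Dnmt3b, the catalytically inactive cofactor gene Dnmt3l, the recruiting factor gene Uhrf1, the dioxygenase genes Tet1, Tet2 and Tet3, and the glycosylase gene Tdg. They were chosen by name, and transcript counts were summed per gene. These are 9 of the 19630 genes in the table, and all 9 were among the 15389 that passed the filter on low counts.

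Messenger RNA was sequenced from mouse cells in 18 libraries, 3 for each of 6 groups. Embryonic fibroblasts, used as the feeder layer of embryonic stem (ES) cells, made up 2 groups without ES cells, control feeders and feeders labelled p53-defective. The other 4 groups held ES cells. They grew on control feeders, on feeders labelled p53-defective, on control feeders that were then removed, or without feeders under ATN161, a compound that blocks integrin α5β1. How feeders were removed, and whether ES cells were cultured on after that, is not stated. The labels name neither the p53 alteration, the ES line, the strain, the time in culture nor the dose of ATN161, and the RNA of a co-culture comes from both kinds of cell. Nothing tells separate cultures from repeat libraries of 1 culture, and p-values therefore reflect the spread among these libraries alone. A difference between the feeder labels cannot be told apart from a difference in the origin or handling of the cells.

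DNA methylation is the addition of a methyl group to cytosine, mostly where a cytosine precedes a guanine (CpG). Dnmt3a and Dnmt3b set new methylation together with Dnmt3l, while Dnmt1, brought to newly replicated DNA by Uhrf1, copies existing methylation to the new strand. The Tet enzymes oxidise methylcytosine, and Tdg removes oxidised forms so that base excision repair can restore an unmethylated cytosine. ES cells are known for high Dnmt3b, Dnmt3l and Tet1, whereas Tet3 is more typical of differentiated cells.

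Library totals ran from 15122704 to 19833399 counts, and levels are TMM-scaled CPM, a library's counts divided by its effective size. The summed level of 11 ES cell markers was 6428 to 6709 TPM, a share of all transcripts corrected for length, on control feeders and 512 to 686 on feeders labelled p53-defective. It was 8357 to 9009 after feeder removal and 9984 to 10160 with ATN161. Feeders labelled p53-defective carried 2076 to 3010 TPM of 11 fibroblast markers, against 14450 to 17540 in control feeders, and 1132 to 1754 against 41.0 to 51.2 TPM of 6 mesothelial markers. Macrophage markers summed to 278 to 375.5 TPM in control feeders and 7.04 to 11.1 in the others, where Adgre1, C1qa, C1qb, Ptprc and Tyrobp were listed at 0. The feeder label thus went with different cell type markers, and their part in any difference below was not tested.

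Of the genes, Dnmt3a and Dnmt3l have start sites whose transcripts differed between cultures, so the 250 bases before these sites are shown, from RefSeq on GRCm38.p6, plus strand, with each CpG in capitals. The first is the window of the long Dnmt3a transcript (chr12:3806730-3806979), the second that of the short one, known as Dnmt3a2 (chr12:3891494-3891743). The third lies before the Dnmt3l start used in ES cells (chr10:78049592-78049841) and the fourth before a downstream Dnmt3l start (chr10:78055085-78055334). The start site of the first window lies 50 bases from the annotated start of the long transcript.
Dnmt3a long: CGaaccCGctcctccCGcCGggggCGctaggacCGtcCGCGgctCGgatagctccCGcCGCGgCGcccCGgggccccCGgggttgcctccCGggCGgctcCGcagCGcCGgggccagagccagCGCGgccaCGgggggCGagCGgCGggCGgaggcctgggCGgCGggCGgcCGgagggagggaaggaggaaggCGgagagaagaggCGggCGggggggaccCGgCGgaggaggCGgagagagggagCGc
Dnmt3a short: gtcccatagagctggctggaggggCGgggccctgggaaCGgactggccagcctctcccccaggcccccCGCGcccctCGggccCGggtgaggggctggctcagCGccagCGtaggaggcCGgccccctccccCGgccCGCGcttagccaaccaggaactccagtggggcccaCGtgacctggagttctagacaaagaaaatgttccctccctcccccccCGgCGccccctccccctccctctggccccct
Dnmt3l ES start: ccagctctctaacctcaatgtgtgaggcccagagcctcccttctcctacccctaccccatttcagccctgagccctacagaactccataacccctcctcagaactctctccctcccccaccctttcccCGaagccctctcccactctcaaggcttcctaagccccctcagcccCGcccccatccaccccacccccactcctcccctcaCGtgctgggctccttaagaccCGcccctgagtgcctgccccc
Dnmt3l downstream start: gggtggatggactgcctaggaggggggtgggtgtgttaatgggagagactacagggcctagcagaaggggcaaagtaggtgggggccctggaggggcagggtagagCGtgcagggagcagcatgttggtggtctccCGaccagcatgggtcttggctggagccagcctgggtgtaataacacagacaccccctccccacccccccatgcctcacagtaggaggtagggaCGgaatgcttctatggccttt
The long Dnmt3a window held 38 CpG, a number reached by 1.9% of the 32851 promoter windows of the same length, and the short one held 15, reached by 27.3%. The windows of Dnmt3l held 4 and 3, reached by 62.2% and 71.0%. The median window held 6. These counts describe the letters only, since methylation was not measured.

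Per length, Dnmt3l was the most abundant of the 9 in ES cells on control feeders, at 223 ± 7.7 TPM (mean ± SD, n = 3, as below), followed by Uhrf1 at 132 ± 2.5, Dnmt1 at 99.9 ± 5.0 and Tdg at 69.6 ± 4.0. Dnmt3b stood at 48.3 ± 0.99, Dnmt3a at 21.2 ± 0.63, Tet1 at 16.3 ± 0.80, Tet2 at 3.97 ± 0.23 and Tet3 at 2.32 ± 0.34 TPM. No neighbours in this order overlapped. After feeder removal Uhrf1 led at 154 ± 8.0 TPM, ahead of Dnmt1 at 114 ± 4.7 and Dnmt3l at 100.4 ± 9.2, whose libraries ranged up to 110.9 TPM against a lowest Dnmt1 library of 110.7. In control feeders the order opened with Tdg at 37.0 ± 2.9 and Dnmt1 at 34.3 ± 1.7 TPM, which overlapped, and the TET gene of highest level was Tet3 at 8.08 ± 0.13 TPM. Tet1 was the highest TET gene in all 3 ES cell cultures other than that on feeders labelled p53-defective, where Tet3 stood at 2.82 ± 0.48 and Tet1 at 0.620 ± 0.27 TPM.

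**Figure D1:**
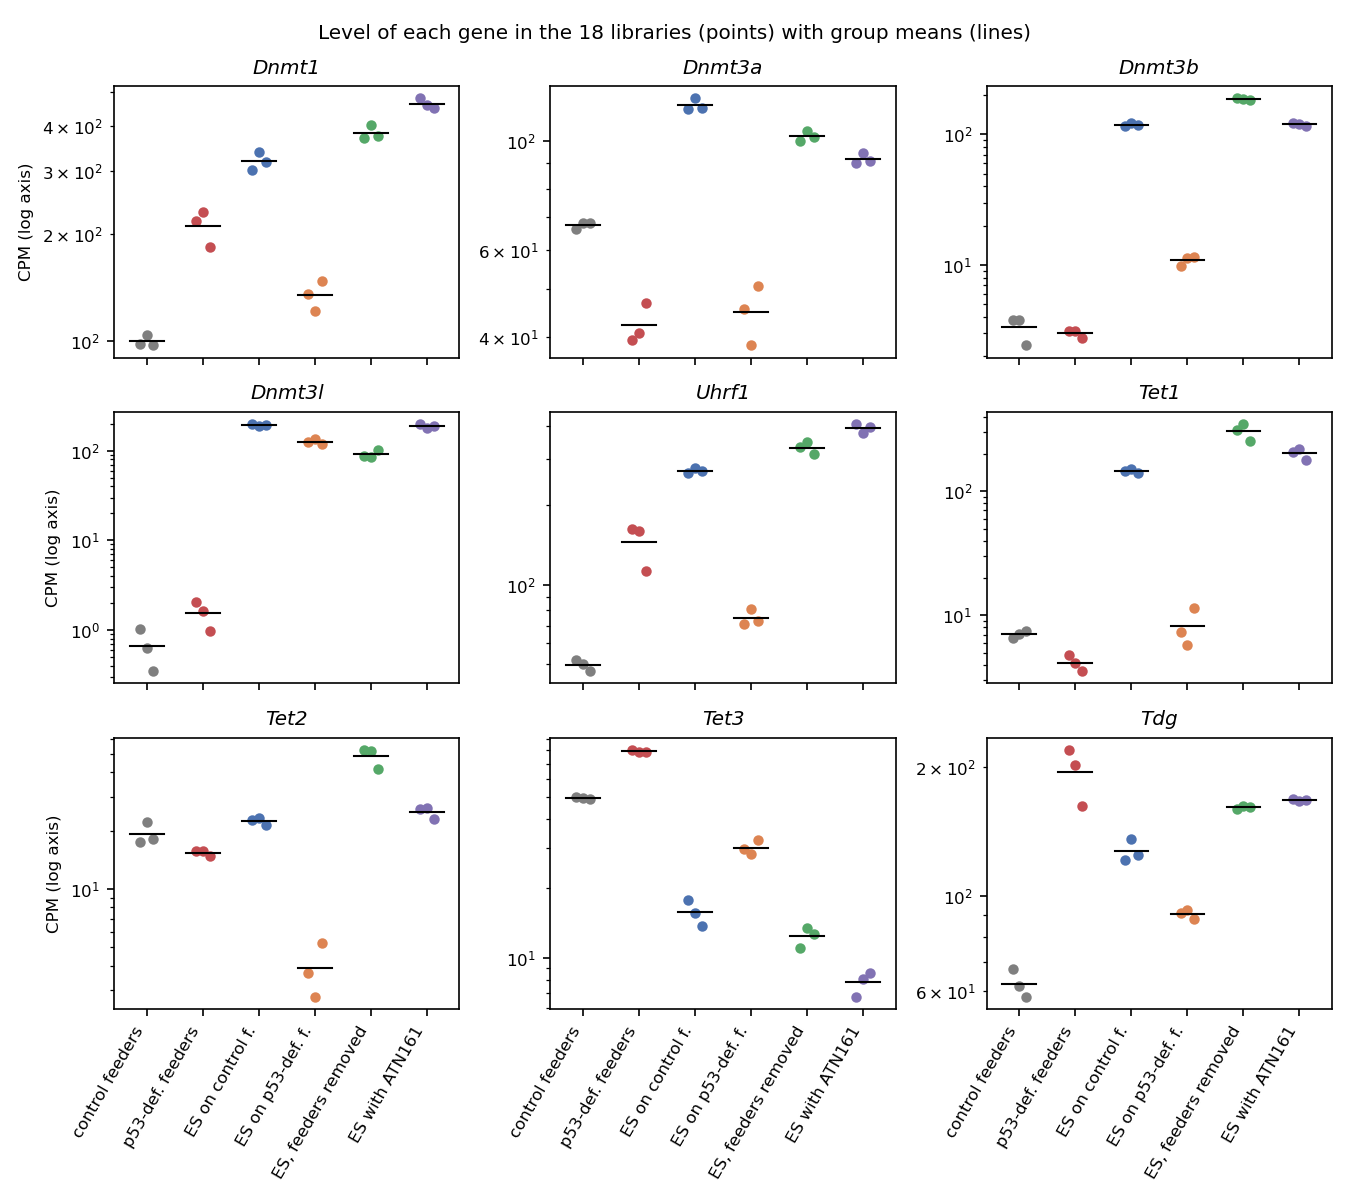
TMM-scaled CPM (log axis) of each gene in the 18 libraries, with points for libraries and lines for the means of 3. Dnmt3b, Dnmt3l and Tet1 lay at or below 7.53 CPM in every feeder library, and Tet3 lay highest in the feeders.

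ES cells after feeder removal were compared with control feeders to show which genes mark which cell type. A gene was called where its Benjamini-Hochberg adjusted p was below 0.05 in edgeR's quasi-likelihood test over all genes tested. All 9 genes were called, 8 higher and 1 lower in ES cells, where 85.9% of all genes were called, 45.1% higher and 40.8% lower. Dnmt3l was measured at 86.4, 84.8 and 101 CPM in ES cells and at 1.02, 0.636 and 0.348 CPM in the feeders, which gave 7.07 ± 0.17 as log2 fold change ± SE (adjusted p = 3.22e-20). Dnmt3b (5.79 ± 0.11) and Tet1 (5.43 ± 0.17) followed, then Uhrf1 (2.73 ± 0.10), Dnmt1 (1.94 ± 0.08), Tdg (1.37 ± 0.09), Tet2 (1.34 ± 0.12) and Dnmt3a (0.60 ± 0.08). Tet3 was lower in ES cells, at 11.03, 13.5 and 12.6 against 50.4, 49.7 and 49.3 CPM (log2 fold change -2.01 ± 0.10, adjusted p = 8.9e-15). Groups did not overlap for any of the 9, against 87.6% of all genes. With curated transcript models alone the difference of Tet2 turned to -1.13 (adjusted p = 0.036). After scaling on ES-specific genes (defined next), which sets them level between these groups, 1 of the 9 was called higher and 6 lower, where 471 of all 15389 genes were higher and 14062 lower. Those genes were chosen for being higher in ES cells than in feeders, so this shift follows from the choice and is no check.

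A stricter view used both groups labelled as ES cells alone and both feeder groups, and called a gene ES-specific where the lower ES mean was at least 8 times the higher feeder mean. By this rule Dnmt3l (58.9 times), Dnmt3b (35.5) and Tet1 (28.6) were ES-specific, and the other 6 were not. Uhrf1 stood at 2.27 times, Dnmt1 at 1.82, Dnmt3a at 1.36, Tet2 at 1.302, Tdg at 0.828 and Tet3 at 0.0981. Among all tested genes apart from these, 429 were ES-specific and 77 feeder-specific by the same rule in reverse. Levels of these genes are given beside the results that follow. They describe the mixture in co-culture only as far as each cell type keeps its levels there, which was not tested. The rule used neither co-culture, so genes of low level after removal or with ATN161 were left out of the ES-specific ones.

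The first comparison of the feeder label was of feeders alone. Feeders labelled p53-defective had more Dnmt1, Uhrf1, Dnmt3l, Tet3 and Tdg and less Dnmt3a, Tet1 and Tet2. Of the 9 genes, 8 were called, 5 higher and 3 lower, where 74.3% of all genes were called, 35.9% higher and 38.4% lower. The median log2 fold change was 0.67 over the 9 and -0.01 over all genes tested. Groups did not overlap for 7 of the 9, against 74.0% of all genes.

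Among maintenance genes, Dnmt1 was measured at 218, 229.6 and 184 CPM in feeders labelled p53-defective and at 98.5, 104 and 97.5 in control feeders. Every library of the former lay above every library of the latter (log2 fold change 1.07 ± 0.08, adjusted p = 7.09e-11). Uhrf1 stood at 163, 160.1 and 113 against 51.9, 50.1 and 47.1 CPM (1.55 ± 0.10, adjusted p = 4.28e-12). In both genes the third library with the p53-defective label was the lowest of its group. Tdg, the glycosylase, had the largest rise of the 9, at 219, 202.5 and 162.5 against 67.5, 61.5 and 58.0 CPM (1.64 ± 0.09, adjusted p = 8.93e-14). The third library was again the lowest.

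Dnmt3a was the de novo enzyme measured at more than a few CPM in feeders, at 39.5, 40.7 and 46.9 in those labelled p53-defective and 66.4, 68.3 and 68.2 CPM in controls (-0.67 ± 0.08, adjusted p = 1.62e-07). Dnmt3b was not called, at 2.996 ± 0.21 against 3.35 ± 0.79 CPM. Dnmt3l was called at trace level, 1.54 ± 0.53 against 0.667 ± 0.34 CPM (1.19 ± 0.31, adjusted p = 0.0014), with libraries that overlapped. Of the erasers, Tet3 rose from 49.8 ± 0.54 to 79.4 ± 0.76 CPM (0.67 ± 0.09, adjusted p = 3.48e-07) and Tet1 was lower at 4.14 ± 0.60 against 7.05 ± 0.48 (-0.77 ± 0.21). Tet2 was called at 15.4 ± 0.57 against 19.2 ± 2.6 CPM (-0.32 ± 0.13, adjusted p = 0.03). That call was lost without control replicate 2 (-0.14, adjusted p = 0.388) and without p53-defective replicate 1, 2 or 3 (adjusted p = 0.11, 0.122 and 0.067).

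Genes that work with the 9 were counted from lists, to be read against the 35.9% higher and 38.4% lower among all genes. Of 11 maintenance partners, 7 were higher and 1 lower, led by the remodeller gene Hells (2.09 ± 0.09), its partner gene Cdca7 (2.02 ± 0.09) and Cdca7l (2.11 ± 0.11). Of 18 DNA replication genes, 15 were higher and 2 lower (median 1.32), led by the licensing gene Cdt1 (1.93 ± 0.08). These moved with Dnmt1 and Uhrf1, and their part in that difference was not tested. Of 10 TET partners and cofactor suppliers, 2 were higher and 5 lower, and Idh1, which makes the 2-oxoglutarate that the Tet enzymes consume, fell by 2.56 ± 0.11 on the log2 scale. Of 13 base excision repair and demethylation genes tested, 10 were higher and 2 lower. Of 12 methyl donor genes, 8 were higher and 3 lower. Ahcy, which hydrolyses the S-adenosylhomocysteine left by methyl transfer, fell by 4.61 ± 0.14.

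**Figure D2:**
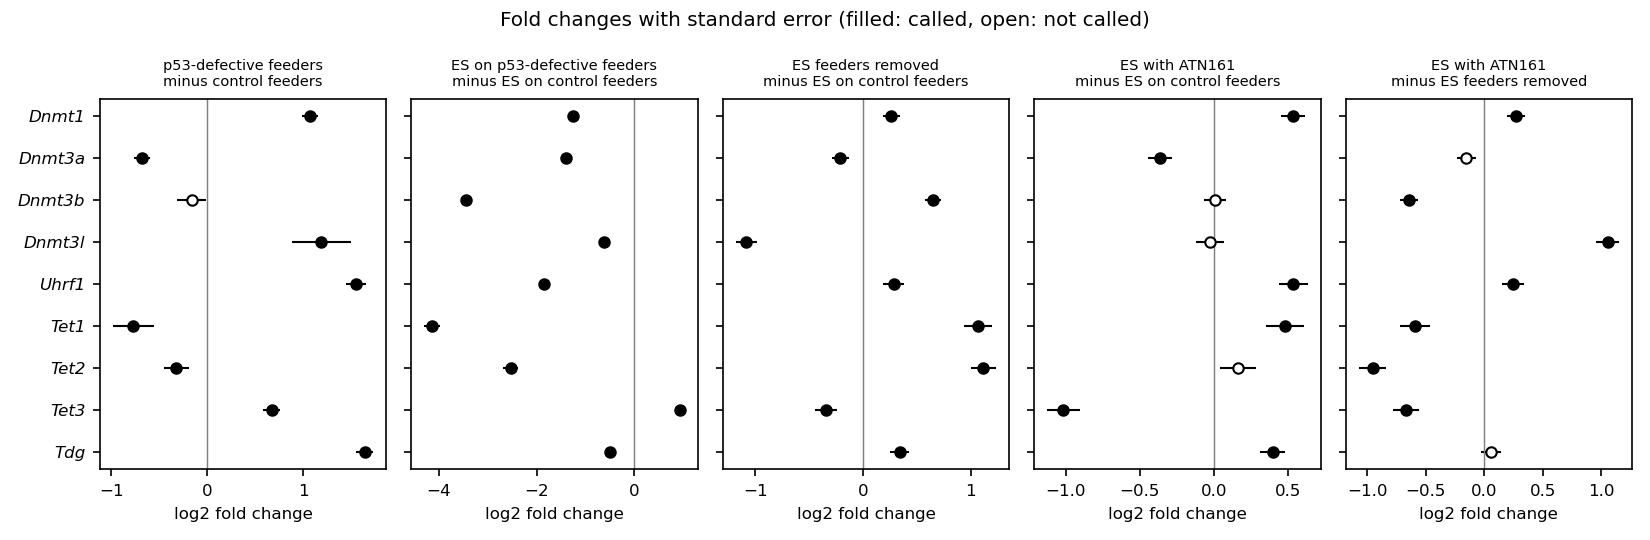
Log2 fold change (points) with standard error (bars) of each gene in 5 comparisons of group means, 3 libraries each, filled where called and open where not; the axes differ between panels. In the second panel 8 of the 9 lie below 0, and with scaling on ES-specific genes 7 of the 9 were called higher in that comparison. With that scaling Dnmt3b, Tet2 and Tdg turned below 0 with ATN161 against control feeders, as did Tdg against feeder removal.

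ES cells on the 2 kinds of feeders were compared next, which asks how the feeder label goes with the co-culture. All 9 genes were called, 8 lower and Tet3 higher on feeders labelled p53-defective, where 83.4% of all genes were called, 46.7% lower and 36.6% higher. Groups did not overlap for any of the 9, against 84.4% without overlap among all genes. The median was -1.39 over the 9 and -0.18 over all genes. In bulk RNA, fewer cells of a type and less RNA per cell cannot be told apart. Relative to ES cells after feeder removal, the median ES-specific gene stood at 80.6% ± 0.25 on control feeders and 9.58% ± 0.54 on feeders labelled p53-defective. The difference was -3.07 on the log2 scale, with an exact two-sided permutation p of 0.1, the smallest that 3 against 3 libraries allow. For the 77 feeder-specific genes the median level was 13.4% ± 0.63 of that in control feeders on the one hand and 55.9% ± 3.5 of that in feeders labelled p53-defective on the other. With a 4-fold rule (270 genes) these were 23.5% and 80.2%, and with a 32-fold rule (4 genes) 3.675% and 14.05%. The feeder level thus depended on the cut-off. For ES-specific genes on feeders labelled p53-defective these rules gave 12.3% and 8.09%.

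Tet1 had the largest fall, with 7.40, 5.74 and 11.5 CPM on feeders labelled p53-defective against 144, 151 and 139 on control feeders (log2 fold change -4.14 ± 0.16, adjusted p = 7.64e-16). Dnmt3b followed with 9.89, 11.2 and 11.6 against 116, 121 and 118 CPM (-3.44 ± 0.09, adjusted p = 5.32e-19). Dnmt3l, the third ES-specific gene, stood at 124, 134 and 120.3 against 197.5, 187 and 193 CPM, a difference of -0.61 ± 0.10 (adjusted p = 3.64e-06). The groups did not overlap in any of these genes. Feeders of the same label alone had 1.54 ± 0.53 CPM of Dnmt3l.

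Among the others, Tet2 fell by 2.53 ± 0.15 on the log2 scale, Uhrf1 by 1.85 ± 0.10, Dnmt3a by 1.39 ± 0.08, Dnmt1 by 1.25 ± 0.08 and Tdg by 0.49 ± 0.09. Tet3 rose from 15.7 ± 2.1 to 30.1 ± 2.1 CPM (0.94 ± 0.10, adjusted p = 7.28e-09). In TPM it stood at 2.32 ± 0.34 on control feeders and 2.82 ± 0.48 on feeders labelled p53-defective, with libraries that overlapped, so its rise depends on the scale. With curated transcript models alone the calls of Tet2 (-0.97, adjusted p = 0.0823) and Tdg (-0.03, adjusted p = 0.78) were lost. With the libraries scaled on the ES-specific genes, the median of all genes moved to 3.21 and the directions changed: 7 of the 9 were called higher and Tet1 lower, where 13519 of all 15389 genes were higher and 399 lower.

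Against the ES-specific genes as a yardstick the 3 ES-specific genes of the 9 parted. The median ES-specific gene on feeders labelled p53-defective was at 11.5% of its level on control feeders. Tet1 was at 5.98%, with 384 of the 429 above it, and Dnmt3b at 9.59%, with 270 above it. Dnmt3l was at 65.6%, with 8 of the 429 above it, where the 5th and 95th percentiles were 4.83% and 35.0%. With scaling on ES-specific genes Tet1 was lower (-0.73 on the log2 scale), Dnmt3b was not called (-0.04, adjusted p = 0.723) and Dnmt3l was higher (2.79, adjusted p = 2.71e-19). Relative to ES cells after feeder removal, Dnmt3l on these feeders was at 139%, with 1 ES-specific gene above it, where the median was 9.70%. All these percentages are of CPM. In TPM Dnmt3l stood at 92.0 ± 4.5 on these feeders and 223 ± 7.7 on control feeders. After removal it stood at 100.4 ± 9.2 TPM, which overlapped the level on these feeders. The ES-specific genes were not ranked in TPM. The genes above Dnmt3l in the first ranking included Ddc at 168% and Itpk1 at 73.9%.

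**Figure D3:**
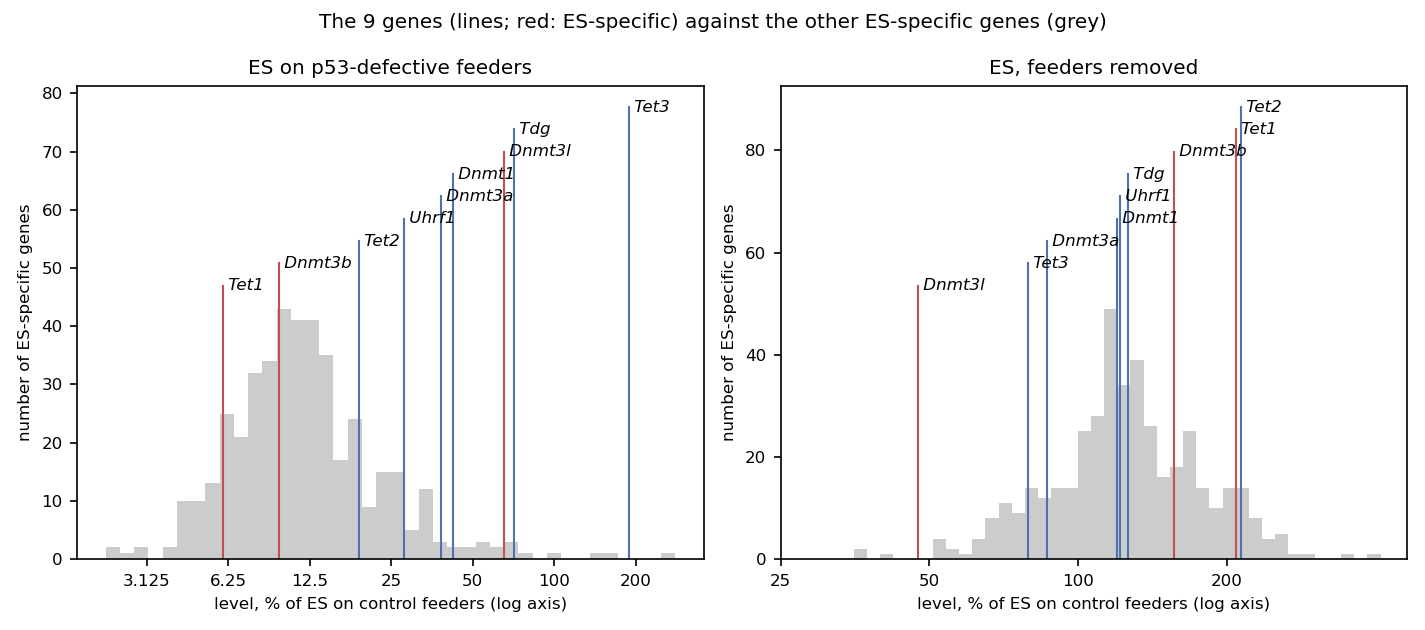
TMM-scaled CPM as a percentage of that in ES cells on control feeders (log axis) for the 429 ES-specific genes (grey bars, number of genes) and the 9 genes (lines, red where ES-specific). On feeders labelled p53-defective Dnmt3l lies right of most grey bars at 65.6% and Tet1 left of most at 5.98%. After feeder removal Dnmt3l lies left of most at 47.3%, where the grey genes were chosen partly for a high level in that group.

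The co-culture on feeders labelled p53-defective was also set against those feeders alone, a comparison added after the values had been seen. Of the 9 genes, 8 were called, 3 higher and 5 lower in the co-culture, where 79.7% of all genes were called, 46.7% higher and 33.0% lower. Groups did not overlap for 8 of the 9, against 76.4% of all genes. The ES-specific genes were higher: Dnmt3l by 6.35 ± 0.15 on the log2 scale, Dnmt3b by 1.86 ± 0.13 and Tet1 by 0.99 ± 0.21. Tet2 was measured at 3.64, 2.75 and 5.23 CPM in the co-culture and 15.7, 15.6 and 14.7 in the feeders alone (-1.98 ± 0.16, adjusted p = 1.62e-10). ES cells after feeder removal had 48.6 ± 6.0 CPM of Tet2, so its level in the co-culture lay below that in these feeders and below that after removal, where fibroblast markers still summed to 1673 to 1962 TPM. Another 3 genes lay below both. They were Dnmt1 at 135 ± 13 CPM against 210.5 ± 23 and 384 ± 17, Uhrf1 at 74.9 ± 5.2 against 145 ± 28 and 329.9 ± 17, and Tdg at 90.6 ± 2.2 against 195 ± 29 and 161 ± 1.2. Against the feeders their log2 fold changes were -0.64 ± 0.08, -0.96 ± 0.10 and -1.10 ± 0.09. Tet3 lay between, at 30.1 CPM against 79.4 in these feeders and 12.4 in ES cells after feeder removal. Fibroblast markers summed to 3862 to 6118 TPM in this co-culture and 2076 to 3010 in these feeders alone, and all 11 were called higher in the co-culture. The feeders alone may thus differ from the feeder part of the co-culture, and the part of this in the values above was not tested. With curated models alone the calls of Tet2 (-0.82, adjusted p = 0.145) and Tet1 (0.96, adjusted p = 0.107) were lost, the latter at nearly the same fold, and with scaling on ES-specific genes Dnmt3b and Tet1 turned lower. Dnmt3a, not called here (0.09 ± 0.08), was called higher with curated models (0.34, adjusted p = 0.0279), without a filter (0.21, adjusted p = 0.0354) and without co-culture replicate 2 (0.18, adjusted p = 0.0351), and was -0.021 with only the groups compared and -2.25 (called lower) with scaling on ES-specific genes.

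The effect of the feeder label in co-culture was compared with its effect in feeders alone by the difference of the log2 fold changes. It was called for 8 of the 9, all negative, where 73.6% of all genes were called, 34.8% negative and 38.8% positive. The largest differences were those of Uhrf1 (-3.40 ± 0.14, adjusted p = 2.32e-15), Tet1 (-3.37 ± 0.28) and Dnmt3b (-3.28 ± 0.18). Tet3, higher with the p53-defective label in both settings, did not pass the test (0.26 ± 0.13, adjusted p = 0.0743), and passed it without replicate 1 of ES cells on control feeders (0.39, adjusted p = 0.0127). After scaling on ES-specific genes none of the 9 was called negative and 6 were called positive, where 13167 of all 15389 genes were positive and 459 negative.

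Removal of control feeders was compared with the co-culture on them, which shows the 9 genes when the feeders are labelled as removed. Tet1, Tet2 and Dnmt3b were higher after removal and Dnmt3l was lower. All 9 were called, 6 higher and 3 lower, where 52.0% of all genes were called, 25.5% higher and 26.5% lower. None overlapped, against 67.0% without overlap among all genes. Of 11 fibroblast markers 5 were lower and 1 higher after removal (median log2 fold change -0.31), with sums of 1673 to 1962 against 2427 to 2579 TPM, and their part in these differences was not tested.

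Dnmt3l was measured at 86.4, 84.8 and 101 CPM after removal and at 197.5, 187 and 193 on the feeders (-1.08 ± 0.10, adjusted p = 9.56e-09). Its level was 47.3% of that in co-culture, below 426 of the 429 ES-specific genes, whose median was 123.5%. Those genes were chosen partly for a high level after removal and not in co-culture, so their median and this rank are partly set by the choice. The de novo enzymes took other directions: Dnmt3b rose to 188.5, 185 and 184 from 116, 121 and 118 CPM (0.65 ± 0.07, adjusted p = 3.21e-07), and Dnmt3a was slightly lower (-0.21 ± 0.08, adjusted p = 0.0304). Among erasers Tet1 rose to 311, 347 and 255 from 144, 151 and 139 CPM (1.07 ± 0.13, adjusted p = 7e-07). Tet2 rose to 52.2, 51.8 and 41.6 from 22.7, 23.1 and 21.4 CPM (1.12 ± 0.12, adjusted p = 1.02e-07). Tet3 was lower by 0.34 ± 0.10 and Tdg higher by 0.34 ± 0.08. With curated models alone the calls of Tet2 (0.05, adjusted p = 0.945), Dnmt3b (0.58, adjusted p = 0.162), Dnmt3a (-0.18, adjusted p = 0.276) and Uhrf1 (0.24, adjusted p = 0.0759) were lost.

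The maintenance genes differed less. Dnmt1 stood at 372, 403 and 376 CPM against 302.5, 338 and 319 (0.26 ± 0.08, adjusted p = 0.00938), and Uhrf1 at 331, 346 and 313 against 265, 277 and 270.5 (0.29 ± 0.10, adjusted p = 0.0163). The call of Dnmt1 was lost without replicate 1 or 3 of the co-culture or replicate 2 after removal (adjusted p = 0.137, 0.0737 and 0.117). That of Uhrf1 was lost without any of the 3 co-culture libraries (adjusted p = 0.116, 0.0664 and 0.0874) and without replicate 1 or 2 after removal (0.0918 and 0.132). With scaling on ES-specific genes the calls of Dnmt1, Uhrf1 and Tdg were lost as well, while Dnmt3b (0.47), Tet1 (0.89) and Tet2 (0.94) stayed higher and Dnmt3l lower (-1.26). Of 11 maintenance partners 9 were higher and none lower (5 and 0 with scaling on ES-specific genes, where 1971 of all genes were higher and 5708 lower), led by Hells (1.15 ± 0.08) and Zfp57, which guards imprinted methylation (0.95 ± 0.07). Of 11 chromatin partners of de novo methylation 9 were higher and 2 lower (5 and 2 with that scaling), among them the Polycomb genes Eed (0.83 ± 0.07) and Suz12 (0.77 ± 0.10).

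With ATN161 in place of feeders, ES cells had more Dnmt1, Uhrf1, Tdg and Tet1 and less Tet3 and Dnmt3a than ES cells on control feeders. Of the 9 genes 6 were called, 4 higher and 2 lower, where 61.6% of all genes were called, 33.6% higher and 28.0% lower. Groups did not overlap for 6 of the 9, against 74.0% of all genes. Dnmt1 was measured at 479, 459.9 and 449.9 CPM, above the 302.5, 338 and 319 CPM on feeders (0.53 ± 0.08, adjusted p = 6.62e-06). Uhrf1 stood at 405, 375 and 395 against 265, 277 and 270.5 CPM (0.53 ± 0.10, adjusted p = 5.46e-05). Tet3 had the largest fold, at 6.72, 8.06 and 8.57 against 17.9, 15.6 and 13.7 CPM (-1.02 ± 0.11, adjusted p = 4.97e-08). Fibroblast markers were at 325 to 351 TPM with ATN161, the lowest of the 4 ES cell cultures, and their part in the difference of Tet3 was not tested.

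Dnmt3l was not called, at 197.5, 180.0 and 189 against 197.5, 187 and 193 CPM (-0.03 ± 0.09, adjusted p = 0.815), with libraries that overlapped. Dnmt3b was not called either (0.01 ± 0.08, adjusted p = 0.952). Fitted with only these 2 groups, Dnmt3l was called lower (-0.12, adjusted p = 0.00666). With curated models the call of Tet1 was lost (0.30, adjusted p = 0.419, against 0.48 ± 0.13). Tet2 was not called (0.16 ± 0.12), and Dnmt3a was lower (-0.36 ± 0.08, adjusted p = 0.000416). With scaling on ES-specific genes the median of all genes moved to -0.35, none of the 9 was called higher (786 of all 15389 genes were, and 7814 lower), and Dnmt3b (-0.42) and Dnmt3l (-0.45) were called lower. Of 18 DNA replication genes 17 were higher and none lower (4 and 0 with that scaling), among them Mcm7, part of the replicative helicase (0.64 ± 0.07). Of 11 maintenance partners 10 were higher (4 with that scaling). Their part in the rise of Dnmt1 and Uhrf1 was not tested. With ATN161, Prdm14, a repressor of de novo methyltransferase genes in ES cells, rose by 1.13 ± 0.11. Prdm14 is itself one of the ES-specific genes used for that scaling. It stood at 217% of its level on control feeders with ATN161, where their median was 138%. After feeder removal it stood at 144%, where their median was 123.5%. The part of Prdm14 in the levels of the 9 was not tested.

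ATN161 was last compared with feeder removal, the other group whose cell type is labelled as ES cells alone. Dnmt3l was higher with ATN161, and Dnmt3b, Tet1, Tet2 and Tet3 were lower. Of the 9 genes 7 were called, 3 higher and 4 lower, where 55.4% of all genes were called, 28.6% higher and 26.8% lower. None of the 9 overlapped, against 69.0% without overlap among all genes. All 11 fibroblast markers were called lower with ATN161 (median log2 fold change -2.10), with sums of 325 to 351 against 1673 to 1962 TPM, and their part in these differences was not tested. Dnmt3l stood at 189 ± 8.8 against 90.9 ± 9.1 CPM (1.06 ± 0.10, adjusted p = 7.18e-09). Tet2 fell by 0.96 ± 0.12 (adjusted p = 6.62e-07), Tet3 by 0.67 ± 0.11, Dnmt3b by 0.64 ± 0.07 and Tet1 by 0.59 ± 0.13. Dnmt1 (0.27 ± 0.08) and Uhrf1 (0.25 ± 0.10, adjusted p = 0.0324) were called higher. The call of Dnmt1 was lost without replicate 1 of feeder removal (adjusted p = 0.0512). That of Uhrf1 was lost without any replicate of feeder removal (adjusted p = 0.0967, 0.0586 and 0.161) or without replicate 1 or 3 with ATN161 (0.0988 and 0.0774). After scaling on ES-specific genes both calls were lost and Tdg turned to -0.19, while Dnmt3l (0.81) stayed higher and Tet2 (-1.202), Tet3 (-0.92), Dnmt3b (-0.89) and Tet1 (-0.84) lower. Tdg was not called at 168 ± 0.99 against 161 ± 1.2 CPM (0.06 ± 0.08, adjusted p = 0.589), and Dnmt3a was not called (-0.15 ± 0.08). Dnmt3a was called lower with only these groups fitted (-0.19, adjusted p = 0.00151) and with scaling on ES-specific genes (-0.40, adjusted p = 0.00206). With curated models Tet2 turned to 0.19 (adjusted p = 0.781), and the call of Dnmt3b was lost at a similar fold (-0.70, adjusted p = 0.0893). Both this comparison and the 2 before it share libraries.

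The order of Dnmt3l over the cultures differed from that of Dnmt3b and Tet1. In CPM, Dnmt3l was highest on control feeders (192.6 ± 5.2 CPM) and with ATN161 (189 ± 8.8), which overlapped, then on feeders labelled p53-defective (126 ± 7.2), and lowest of the 4 after feeder removal (90.9 ± 9.1). In TPM it stood at 223 ± 7.7 on control feeders and 184 ± 7.6 with ATN161, which did not overlap. On feeders labelled p53-defective it stood at 92.0 ± 4.5 TPM and after removal at 100.4 ± 9.2, which overlapped, so this part of the order depends on the scale. Dnmt3b ran from 186 ± 2.5 CPM after removal through 119 ± 3.0 with ATN161 and 118 ± 2.6 on control feeders, which overlapped, to 10.9 ± 0.90 on feeders labelled p53-defective. Tet1 ran from 304 ± 46 after removal through 202 ± 21 with ATN161 and 145 ± 6.1 on control feeders to 8.202 ± 2.9.

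Transcript estimates added which form of Dnmt3a was present. The short transcript (RefSeq NM_153743) encodes an isoform known as the main one of ES cells, and the long one (NM_007872) the isoform common in differentiated cells. The short form held 74.0, 75.9 and 77.3% of Dnmt3a TPM on control feeders, 76.05, 80.04 and 81.9% after feeder removal (79.3 ± 3.0) and 79.9, 71.3 and 76.6% with ATN161. On feeders labelled p53-defective it held 14.2, 22.25 and 25.8%, and the long form 75.7, 76.1 and 73.0%. The shares of these forms did not overlap between the 2 co-cultures. The long form was at 3.64 ± 0.79 TPM there and 3.17 ± 1.3 TPM on control feeders, which overlapped, while the short form was at 1.03 ± 0.47 against 16.05 ± 0.49 TPM. Feeders labelled p53-defective alone had 34.5% ± 6.3 of the short form and control feeders 58.0% ± 0.69. In TPM the short form in the co-culture was below the 2.67 ± 0.75 of these feeders alone. The whole gene was also lower in the co-culture in TPM, at 4.88 ± 1.2 against 7.67 ± 0.92. In CPM Dnmt3a was not called between these groups (log2 fold change 0.09 ± 0.08), with libraries that overlapped. The transcripts were not compared in CPM, so the lower short form and the overlap of the long form hold for TPM alone.

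Of Dnmt3l, 2 transcripts from the start used in ES cells, NM_001284197 and NM_019448, held nearly all TPM in ES cell cultures. The former held 55.8% ± 2.6 and the latter 43.7% ± 2.7 on control feeders, and 70.4% ± 4.7 and 29.35% ± 4.7 on feeders labelled p53-defective. In the trace of control feeders NM_001284200, from the downstream start, held 43.95, 87.2 and 68.85% and stood at 0.733 ± 0.34 TPM. In feeders labelled p53-defective it held 48.1% ± 15 (1.09 ± 0.35 TPM) and NM_001284197 51.9% ± 15 (1.25 ± 0.57 TPM). In the co-culture on feeders labelled p53-defective this transcript was at 0.0400 ± 0.069 TPM, against 64.6 ± 1.4 for NM_001284197. Of Tet2, predicted models held 85.7% ± 8.5 after feeder removal and 21.5% ± 23 in control feeders, where its libraries ranged from 7.04% to 47.8%. These shares are estimates from short reads and were not tested.

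**Figure D4:**
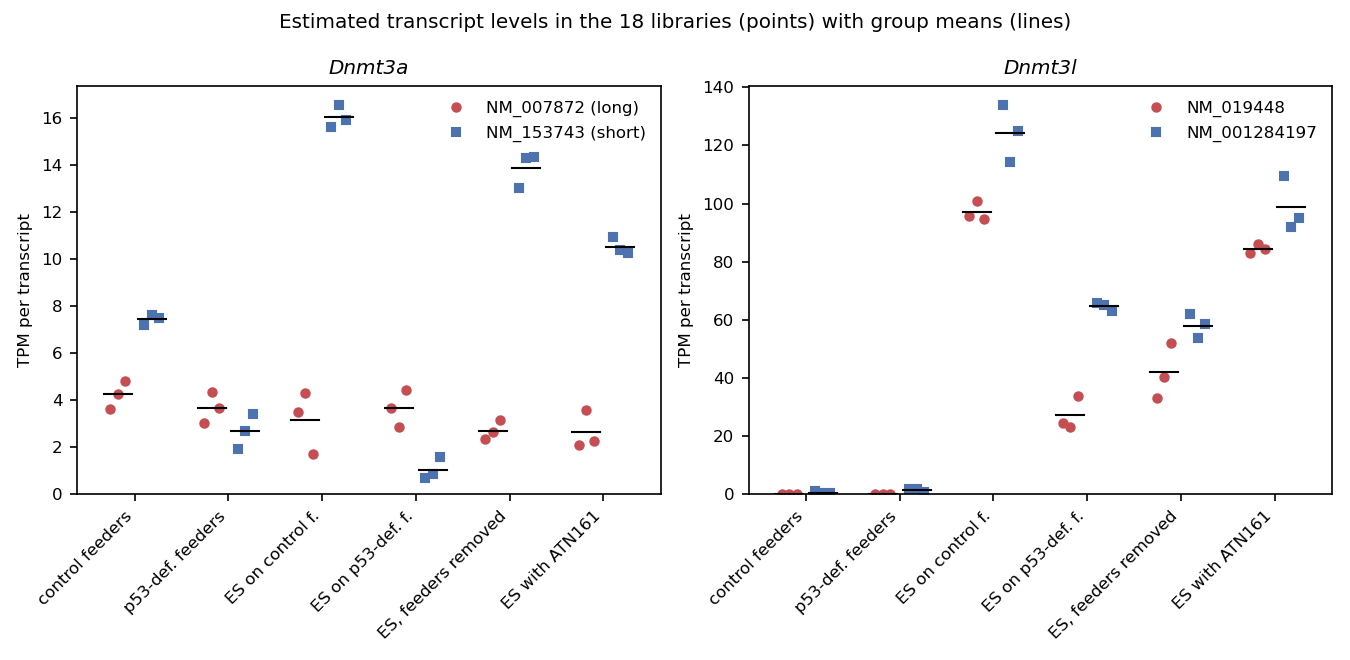
Estimated TPM of 2 transcripts each of Dnmt3a and Dnmt3l in the 18 libraries (points) with means of 3 (lines). The short Dnmt3a form stands at 16.05 TPM in ES cells on control feeders and 1.03 on feeders labelled p53-defective, while group means of the long form lie between 2.64 and 4.24 TPM and its libraries between 1.68 and 4.82.

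On GRCm38 the genes lie on 7 chromosomes: Dnmt3b on chromosome 2 from 153649411 to 153687730, Tet2 on 3 from 133463677 to 133545136, Tet3 on 6 from 83362373 to 83457208, Dnmt1 on 9 from 20907206 to 20959888, and Tet1 on 10 from 62804570 to 62887469. Dnmt3l lies on chromosome 10 from 78042287 to 78063622 and overlaps Aire, and Tdg on the same chromosome from 82629814 to 82650799 and overlaps Glt8d2. Dnmt3a lies on 12 from 3801559 to 3914443 and overlaps the noncoding genes Dnmt3aos and Gm31623, and Uhrf1 on 17 from 56303337 to 56323486. Noncoding genes also overlap Tet1 (Gm51805), Tet3 (B230319C09Rik and Mir6374) and Dnmt1 (Mir7081). Whether the libraries kept strand is not stated, so reads of overlapping genes cannot be told apart. Tdg, Dnmt3l, Dnmt3b and Dnmt3a have pseudogenes in RefSeq, which makes their counts uncertain to that degree.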

How the data were processed

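Per the labels' protocols, Trizol extraction was followed by TruSeq mRNA library preparation. Tools listed in the submitters' processing notes are StringTie 1.3.3b, HISAT2 2.1.0, DESeq2 1.2.10 and SAMtools 1.4. The notes give no role for any of them, and name GRCm38 and mm10 as builds. The authors deposited 1 table of 75416 RefSeq mRNA transcripts, of which 32625 were curated (NM) and 42791 predicted (XM) models, with expected counts (estimated reads, not normalised), TPM and FPKM per library. The deposited expected counts were added up over the transcripts of each of 19630 genes, then rounded to whole numbers. Before rounding, 89.3% of those above 0 lay within 0.05 of a whole number. The deposited TPM were summed per gene to compare levels between genes and split by transcript; the deposited FPKM were not used.

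Genes were filtered with filterByExpr (15389 kept, 4241 removed) and tested, two-sided, with edgeR 4.0.16 under R 4.3.3 (quasi-likelihood, TMM, robust), fitting all 18 libraries together with 1 coefficient per group, with Benjamini-Hochberg adjustment over all genes tested and calls at 0.05. Levels are TMM-scaled CPM. The fit's shared dispersion corresponds to a coefficient of variation of 0.0792. The squared difference between replicates averaged 1.94 to 42.1 times that of counting noise. It was 10.8 to 42.1 times in the co-culture on feeders labelled p53-defective and 3.15 to 27.3 times in those feeders alone. In the other groups it was at most 10.9 times. The groups share 1 estimate of the spread, and standard errors were derived from the test statistic. They may therefore be too small for the 2 groups with the p53-defective label. The fit was tested on simulated data. Library totals of 15122704 to 19833399 counts limit precision by counting error, and the number of libraries limits it further. ES-specific and feeder-specific genes had at least 10 CPM, and percentages against them used an offset of 0.5 CPM. Only the 9 were left out of them. The ES-specific genes thus hold genes of the lists, such as the germline gene Dazl and the maintenance partner Dppa3. Counts of such lists with scaling on ES-specific genes are therefore not independent of that scaling. Symbols for 19482 genes and all promoter windows came from RefSeq, GRCm38.p6, and all 9 genes had a window.

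The 9 genes and the gene lists were chosen with earlier results of these data known. Named genes are the 9, up to 3 members of each list with the smallest adjusted p in a comparison, the cell type markers, and for each of the 9 the 3 genes of highest Pearson r of log2 CPM (prior count 2) over 18 libraries. The comparison of ES cells on feeders labelled p53-defective with those feeders alone was added after the members' values were seen. Genes above Dnmt3l among the ES-specific ones were named after their values were seen. Alternatives were DESeq2 1.42.0 size factors and its Wald test, limma-voom (limma 3.58.1), no filter or 5 CPM in 3 libraries, a replicate block, scaling on ES-specific genes, curated transcripts only, only the groups compared, and each library left out.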

Additional observations from a re-analysis of the deposited data

Results flagged for a closer look

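In 8 of the 9 genes the change that went with the p53-defective feeder label differed between co-culture and feeders alone, by the test of that difference in the fit over all genes. The log2 difference (co-culture effect minus feeder effect) was -3.40 for Uhrf1, -3.37 for Tet1, -3.28 for Dnmt3b, -2.32 for Dnmt1, -2.20 for Tet2, -2.13 for Tdg, -1.80 for Dnmt3l and -0.72 for Dnmt3a. Uhrf1, Dnmt1, Tdg and Dnmt3l were higher with that label in feeders alone and lower with it in co-culture. The other 4 were lower with it in both settings, of which Dnmt3b was not called in feeders alone. In feeders alone Dnmt3l was at trace level, 1.54 ± 0.53 with the label against 0.667 ± 0.34 CPM without it, with libraries that overlapped. ES cell markers summed to 512 to 686 TPM in the co-culture on these feeders and 6428 to 6709 on control feeders, and the part of this in the differences was not tested. With scaling on ES-specific genes the differences of Dnmt1 (0.84), Dnmt3a (2.45), Dnmt3l (1.34), Tet2 (0.95) and Tdg (1.02) turned positive. With curated transcripts alone that of Tet2 turned to 0.36 and was not called (adjusted p = 0.674).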

How the results depend on the processing

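Of the 72 log2 fold changes of the 9 genes in 8 comparisons, direction and call held for 71 under the DESeq2 Wald test, 71 under limma-voom, 70 under DESeq2 size factors, 70 with at least 5 CPM in 3 libraries, 68 without a filter, 68 with only the groups compared, 56 with curated transcripts and 30 with scaling on ES-specific genes. Leaving out 1 library kept 460 of 486. Scaling on ES-specific genes is no check where ES cells are compared with feeders, and such values are among the 72. Where a value below changed, the cause was not tested, except that fits of curated transcripts or fewer groups hold fewer reads or libraries. In ATN161 against control feeders Dnmt3b, not called, turned to -0.012 with DESeq2 size factors or its Wald test, -0.076 without a filter, -0.076 with 5 CPM, -0.083 with only the groups compared and -0.12 with curated transcripts. Curated transcripts also turned Tet2 to 0.19 in ATN161 against removal, -1.13 in ES cells against feeders and 0.36 in the difference of label effects. With them 3 genes were higher after removal, 2 lower with ATN161 than after removal and 2 lower in ES cells than feeders. With only the groups compared, Dnmt3a turned to -0.021 in the p53-defective co-culture against its feeders. Under limma-voom 1 difference of label effects was positive (Tet3, 0.27, adjusted p = 0.0491).

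Scaling on ES-specific genes sets these genes equal between groups, which moved the median of all genes to 0.18 in feeders, 3.21 in co-culture, -0.19 after removal, -0.35 and -0.22 with ATN161 (against control feeders and removal), -5.58 in ES cells against feeders, 3.22 in the difference of effects and -2.06 in the co-culture against its feeders. In that order the genes called higher and lower became 6744 and 4575, 13519 and 399, 1971 and 5708, 786 and 7814, 1573 and 6219, 471 and 14062, 13167 and 459, and 863 and 12539. The main counts were 5528 and 5905, 5638 and 7191, 3924 and 4077, 5176 and 4307, 4406 and 4121, 6937 and 6285, 5975 and 5352, and 7187 and 5078. In ES cells against feeders the shift follows from how the ES-specific genes were chosen. Between feeders alone this scaling rests on genes chosen as low in feeders relative to ES cells. In feeders Dnmt3b turned to 0.081. In co-culture Dnmt1 turned to 2.16, Dnmt3a to 2.02, Dnmt3l to 2.79, Uhrf1 to 1.54, Tet2 to 0.88 and Tdg to 2.91, with 7 of the 9 higher and 1 lower. After removal 3 were higher. With ATN161 against control feeders Dnmt3b turned to -0.42, Tet2 to -0.27 and Tdg to -0.031, with 0 higher and 4 lower, and against removal Tdg turned to -0.19, with 1 higher. In ES cells against feeders Dnmt1 turned to -3.74, Dnmt3a to -5.08, Uhrf1 to -2.95, Tet1 to -0.24, Tet2 to -4.34 and Tdg to -4.31, with 1 higher and 6 lower. The difference of effects turned to 0.84 for Dnmt1, 2.45 for Dnmt3a, 1.34 for Dnmt3l, 0.95 for Tet2 and 1.02 for Tdg, with 6 positive and 0 negative. In the co-culture against its feeders Dnmt3a turned to -2.25, Dnmt3b to -0.48 and Tet1 to -1.35, with 1 higher and 8 lower. With curated transcripts 3016 and 3827 genes were higher and lower with ATN161 against control feeders, 2279 higher after removal and 2705 higher with ATN161 against removal.

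Leaving out 1 library at a time, Dnmt3b ran from -0.087 to 0.025 with ATN161 against control feeders and from -0.34 to 0.0077 between feeders, and Dnmt3l from -0.12 to 0.0062 with ATN161 against control feeders. The number of genes with a positive difference of effects ran from 0 to 1, the 1 being Tet3 without replicate 1 of ES cells on control feeders. The number higher with ATN161 than after removal ran from 1 to 3, with 1 left without replicate 1 of removal.

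The replicate numbers shared by the groups did not pair the libraries: 21 correlations of same-numbered deviations ran from -0.07 to 0.223, and in 1 comparison, ATN161 against removal, every library correlated best with its own number. With the replicate number as a block all 72 values kept direction and call, and 11384 genes were called between feeders against 11433 without it. Counting error limits genes of a few CPM, such as Dnmt3l in feeders.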

Other observations

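Germline genes known to be silenced by DNA methylation, such as the RNA-binding gene Dazl and the synaptonemal complex gene Sycp3, were measured in every ES cell culture. Their summed level over 10 genes was 223 to 231 TPM on control feeders, 166 to 182 after feeder removal, 299.5 to 327 with ATN161 and 20.7 to 24.5 on feeders labelled p53-defective. Feeders labelled p53-defective alone had 15.2 to 20.3 TPM and control feeders alone 3.08 to 3.22. The part of the feeders in the level of the co-cultures was not tested. With ATN161 all 10 were called higher, against ES cells on control feeders (median log2 fold change 0.67, where 33.6% of all genes were called higher) and against feeder removal (median 1.198, where 28.6% were). Scaled on ES-specific genes, these were 5 and 10 of the 10, where 786 and 1573 of all 15389 genes were called higher. Genes of this list, such as Dazl, Sycp3 and Ddx4, are among the ES-specific genes used for that scaling, so these counts are not an independent check. Ddx4, a germ cell helicase gene, rose by 1.43 ± 0.13 against control feeders, and Taf7l, a testis transcription factor gene, by 1.75 ± 0.09 against feeder removal. After removal of control feeders 7 of the 10 were lower and 1 higher than in co-culture (7 and 0 with that scaling), and Taf7l fell by 1.07 ± 0.09. Feeders labelled p53-defective had 5.89 CPM of Sycp1, a gene listed at 0 in control feeders.

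Several genes had profiles over the 18 libraries close to those of the 9, which share library depth and cell mixture. The profile most like that of Dnmt1 was of Mcm6, a part of the replicative helicase (Pearson r of log2 CPM 0.9963), followed by the Polycomb gene Ezh2 (0.9949) and Nup107 (0.9944). Uhrf1 was closest to Paip2b (0.9949), Mcm6 (0.9947) and Dnmt1 (0.9936). Dnmt3a was closest to Notch1 (0.9883), Dnmt3b to Slc5a1 (0.9977), Tet1 to Mcf2 (0.9966), Tet2 to Zfp704 (0.9932), Tet3 to Adam9 (0.9915) and Tdg to Anln (0.9837). Dnmt3l was closest to the low genes 3830417A13Rik (0.9886), B020031M17Rik (0.9877) and Rhox9 (0.9852). Rhox9, a homeobox gene, stood at 4.93 CPM on control feeders, 4.95 on feeders labelled p53-defective, 3.86 after feeder removal and 9.32 with ATN161.

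Among readers of methylcytosine, Zbtb4 fell by 1.06 ± 0.09 after feeder removal and by 2.07 ± 0.10 with ATN161, each against ES cells on control feeders. Uhrf2, the paralogue of Uhrf1, was lower in ES cells after feeder removal than in control feeders (-0.87 ± 0.07), opposite in sign to Uhrf1 (2.73). Of 13 base excision repair and demethylation genes tested, 6 were higher and 7 lower on feeders labelled p53-defective against control feeders in co-culture. Among all genes 36.6% were higher and 46.7% lower. Gadd45b rose by 2.29 ± 0.08 and Parp1 fell by 2.02 ± 0.06 there. Parp1 is itself one of the 429 ES-specific genes, and stood at 24.7% of its level on control feeders, where their median was 11.5%. Of 11 maintenance partners 10 were lower in that comparison and of 18 DNA replication genes 16, where 46.7% of all genes were lower. Once scaled on ES-specific genes, all 11 and all 18 were called higher there, as were 9 of the 10 germline genes and 13519 of all 15389 genes.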
